A study of Mus musculus with 8 samples.

Results

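Thyroid hormone reaches the nucleus in steps that each depend on a small set of genes. Transporters carry thyroxine (T4) and triiodothyronine (T3) across the cell membrane, deiodinases turn the prohormone T4 into T3 or inactivate both hormones, a cytosolic protein binds T3, and the receptors, bound to DNA, hold target genes repressed without hormone and activate them with it. In the uterus, where these receptors are present in epithelium, stroma and muscle, disturbed thyroid hormone action is linked to impaired fertility. The 9 genes described here cover these steps in mouse endometrium. *Thra* and *Thrb* encode the receptors, *Dio2* and *Dio3* the activating and the inactivating deiodinase, *Slc16a10*, *Slc7a5* and *Slc7a8* membrane transporters, *Crym* the T3-binding protein mu-crystallin, and *Hr* the corepressor hairless, a gene that T3 induces in brain. They were chosen by gene symbol, and all 9 were found by Ensembl identifier among the 52325 genes of the deposited count table. Of these, 8 had enough counts to be tested, as did 18174 genes in all. *Crym* did not.

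The samples were endometrium cut by laser-capture microdissection from frozen uterine sections of female mice in metestrus, with RNA-seq libraries of 4 WT mice and 4 mice of genotype Thra1PV/+. The mutant mice carry the PV mutation, a frameshift at the C-terminus of the receptor TRα1, in 1 of the 2 alleles of *Thra*. It is a knock-in of the gene itself, so the receptor without normal hormone response is made wherever *Thra* is expressed, beside the WT receptor. Mouse strain and the age of the mice behind these libraries are not given in the sources used here, and no drug or hormone treatment is described for them. To synchronize the cycle, the authors put females in cages soiled by males. They staged metestrus by visual inspection and impedance. The comparison asks how local handling of thyroid hormone differs in a uterus with the mutant receptor.

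The libraries held between 48791602 and 59818887 counts. Markers of endometrium were present in all 8, but the mix of cells was not the same from library to library. Summed over 10 stroma markers, levels lay between 448 and 5376 CPM (counts scaled to the TMM-normalized library size) in Thra1PV/+ and between 1572 and 5435 CPM in WT libraries, and the same 3 libraries (WT 1, WT 2 and Thra1PV/+ 1) were at 5145 CPM or more in this sum while the other 5 were at 1795 CPM or less. The sum of 10 squamous epithelium markers was 3172 to 5171 CPM in Thra1PV/+ and 47.1 to 176 CPM in WT endometrium. WT library 1 stood apart on 10 smooth muscle markers, with a sum of 13222 CPM where its fellow WT libraries had 576 to 1157 CPM and Thra1PV/+ libraries 147 to 689 CPM, so values without it are given below where they moved. None of the markers in these lists was at 0 in all libraries. In whole tissue of this kind, fewer cells of a type and less RNA per cell cannot be told apart.

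The reading frames of the genes show what the counts can and cannot resolve. *Thra* (chromosome 11 of GRCm38, 98740638 to 98769006, plus strand) makes TRα1, which binds T3, and the splice variant TRα2, which does not. Their coding sequences share the first 370 codons and then part. The last 45 coding bases of each transcript in GENCODE M21 are shown, since the PV frameshift lies at this end of TRα1. The stop codon is in capitals.

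TRα1 (Thra-202, 410 codons, chr11:98764484-98764528, plus strand): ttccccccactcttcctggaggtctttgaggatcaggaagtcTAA

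TRα2 (Thra-201, 492 codons, chr11:98768481-98768525, plus strand): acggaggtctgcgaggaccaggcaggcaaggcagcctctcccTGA

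The deposited table holds 1 value per gene, which sums both variants and, in the mutant, both alleles. The end of TRα2 also lies within the 1075 bases (98767932 to 98769006) that *Thra* shares with *Nr1d1*, the circadian repressor REV-ERBα on the opposite strand. The libraries were stranded, but the strand setting of the counting is not given in the sources used here.

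The deiodinases read a TGA codon as selenocysteine, the residue at their catalytic site, in place of a stop. The stretch around this in-frame codon, in capitals, is shown for all 3 deiodinase genes because it is the part that the enzymes have in common and that sets the members of this family side by side (GRCm38). *Dio2* holds 2 in-frame TGA codons, of which the first is shown, and *Dio1* and *Dio3* hold 1 each.

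Dio2 (codon 130, chr12:90729799-90729849, minus strand): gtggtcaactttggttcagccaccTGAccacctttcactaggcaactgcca

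Dio3 (codon 170, chr12:110279715-110279765, plus strand): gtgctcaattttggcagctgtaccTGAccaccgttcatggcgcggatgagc

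Dio1 (codon 126, chr4:107297676-107297726, minus strand): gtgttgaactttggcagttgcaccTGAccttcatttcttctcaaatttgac

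Across the 9 genes, transcript levels spanned more than 2 orders of magnitude. Levels of different genes were set side by side in the deposited TPM (a unit corrected for transcript length), averaged over the 8 libraries. *Dio2* had the highest level at 52.7 TPM, and *Thra* followed at 47.6 TPM. In this unit these 2 did not differ beyond their spread, which in WT endometrium was 52.4 ± 20.6 TPM for *Dio2* and 45.2 ± 21.8 TPM for *Thra* (SD, n = 4). In CPM, which is not corrected for length, WT endometrium had 247 ± 79.0 for *Dio2* and 78.0 ± 33.7 for *Thra*. Their annotated exons cover 5815 and 4614 bases, so the closeness of the 2 levels depends on the unit. *Slc7a5* and *Slc7a8* came next, at 16.5 and 14.5 TPM, and also lay within each other's spread. *Slc16a10* had 4.31 TPM, *Hr* 2.97 TPM, *Thrb* 2.11 TPM and *Dio3* 1.01 TPM, while *Crym* had 0.0952 TPM and was near the limit of detection. In WT endometrium alone the spreads of *Hr*, *Thrb* and *Dio3* overlapped, at 2.58 ± 1.23, 2.83 ± 0.676 and 1.79 ± 1.12 TPM (SD, n = 4).

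Differences between genotypes were tested on the estimated counts with edgeR's quasi-likelihood test over all 18174 genes. A call required an adjusted p-value of at most 0.1 together with at least a 2-fold difference. Of the 8 tested genes 0 were called, where 0.99% of all tested genes were. At an unadjusted p-value under 0.05, *Dio3* and *Thrb* passed, 2 of 8, where 9.77% of all genes did. Both had the lower level in Thra1PV/+ endometrium, as had 4.72% of all genes at that threshold. *Dio3* was the only one of the 8 genes without overlap between the genotypes, a state found in 6.04% of all tested genes, or in 2.49% in its direction. DESeq2, the tool the authors used, called 1 of the 9 genes, *Dio3*, where it called 1.01% of the genes it tested as lower. Fold changes are log2 of Thra1PV/+ over WT throughout.

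**Figure D1:**
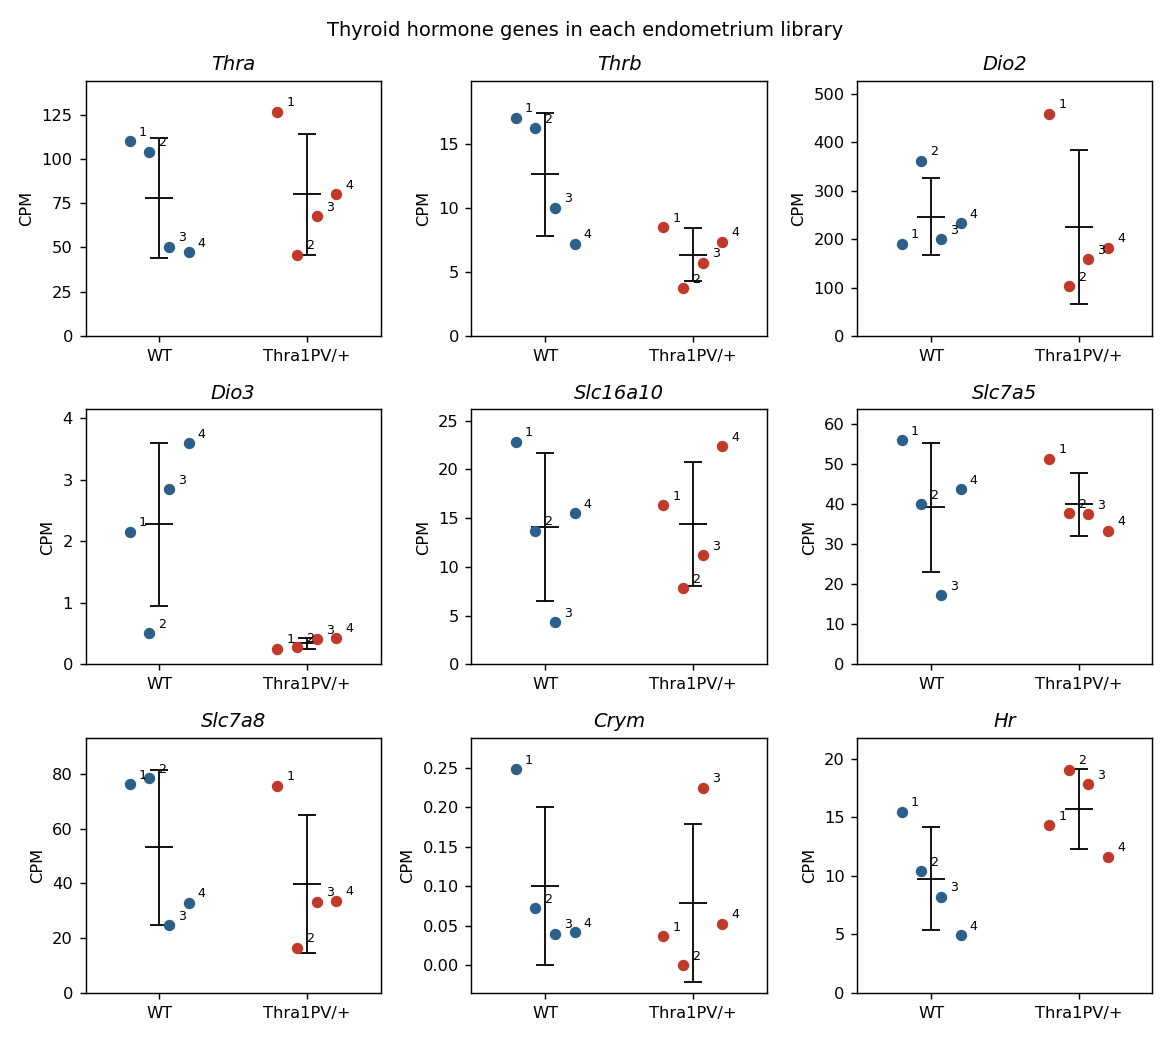
CPM (after TMM normalization) of the 9 genes in each library, with its replicate number, by genotype. The dash and bar are the mean ± SD of 4 libraries, and each panel has its own linear axis. For *Dio3* the 4 Thra1PV/+ libraries sit between 0.257 and 0.438 CPM, below all 4 WT libraries, and for every other gene the genotypes overlap.

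Transcripts of *Thra*, the mutated gene, varied more within each genotype than between the genotype means. *Thra* had 127, 45.8, 67.8 and 80.0 CPM in Thra1PV/+ libraries 1 to 4 and 110, 104, 50.3 and 47.4 CPM in WT libraries 1 to 4. The highest and the lowest of the 8 values were both from mutant mice. Its log2 fold change was 0.04 (SE, the standard error, 0.39, adjusted p = 0.987, edgeR), so the sum of WT and PV transcripts was not shown to differ. Its CPM spanned a 2.77-fold range among Thra1PV/+ and a 2.32-fold range among WT libraries. Without WT library 1 the log2 fold change was 0.29 (adjusted p = 0.951, edgeR). *Nr1d1*, which shares bases with *Thra*, had 14.2 to 23.2 CPM in Thra1PV/+ and 5.71 to 20.6 CPM in WT libraries, a log2 difference of 0.23 (SE 0.39, adjusted p = 0.900, edgeR).

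*Thrb* (chromosome 14, 17660261 to 18038090, plus strand) encodes TRβ, the other T3 receptor. Its level was 8.50, 3.73, 5.72 and 7.35 CPM in Thra1PV/+ libraries 1 to 4, and 17.0, 16.2, 9.99 and 7.18 CPM in WT libraries 1 to 4. The 3 highest values were all WT, but WT library 4 fell among the mutant libraries. This gave a log2 fold change of -0.99 (SE 0.36, unadjusted p = 0.0246, adjusted p = 0.413, edgeR), a mean level 1.99-fold lower that did not pass the threshold. Without WT library 1, the library with the high muscle markers, it was -0.77 (adjusted p = 0.631, edgeR).

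The levels of both receptor genes were also compared within each library, as a ratio. The *Thra* value sums TRα1 and TRα2 and, in the mutant, both alleles, so the ratio is not one of T3-binding receptors. By deposited TPM, *Thra* exceeded *Thrb* 49.1, 34.0, 31.1 and 27.8 times in Thra1PV/+ libraries 1 to 4 and 19.9, 18.0, 10.6 and 12.8 times in WT libraries 1 to 4. All 4 mutant libraries were above all 4 WT libraries. The geometric means were 34.7 and 14.8, a difference of 1.23 on the log2 scale, beside an SD of 0.36 among mutant and 0.43 among WT libraries. When counts were instead divided by the annotated exon length, the ratios were lower, 17.4 to 23.9 in Thra1PV/+ and 8.08 to 10.6 in WT libraries, and the difference was 1.02 on the log2 scale, again without overlap. Leaving out any 1 library kept the difference in TPM between 1.06 and 1.37. The ratio is given as a description and was not tested, since it was formed from 2 of the chosen genes. How many other gene pairs separate the genotypes as fully was not determined. Of single tested genes 6.04% were without overlap.

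**Figure D2:**
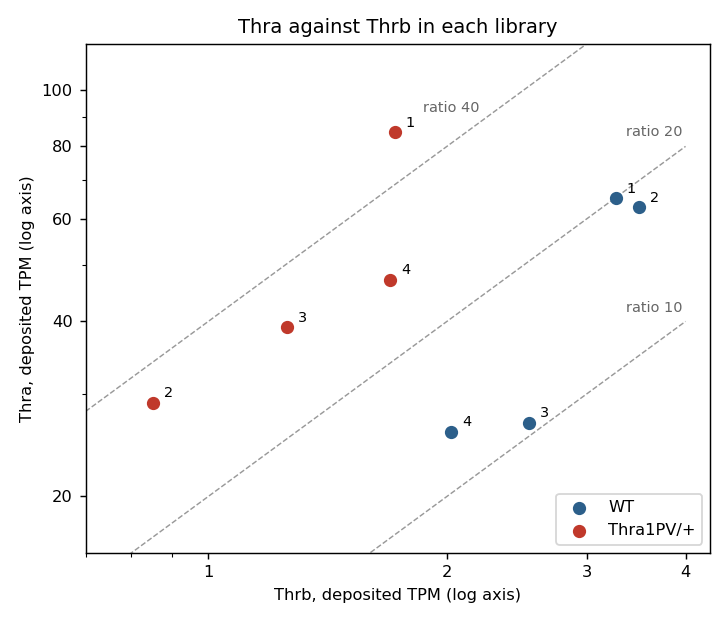
Deposited TPM of *Thra* (vertical) against *Thrb* (horizontal) on log axes, 1 point per library with its replicate number, and dashed lines of equal ratio. The 4 Thra1PV/+ points lie above the line for a ratio of 20 and the 4 WT points below it, although the *Thra* values of the genotypes overlap. The *Thra* value sums TRα1 and TRα2, and the ratio was not tested.

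Among the deiodinases the lowest adjusted p-value belonged to *Dio3*. *Dio3*, which removes an inner-ring iodine and so inactivates T3 and T4, is an imprinted gene on chromosome 12 (110279068 to 110281097, plus strand). It was read 14, 14, 20 and 25 times in Thra1PV/+ libraries 1 to 4 and 113, 28, 143 and 172 times in WT libraries 1 to 4, or 0.257, 0.284, 0.409 and 0.438 CPM against 2.16, 0.506, 2.84 and 3.60 CPM. Every mutant library was below every WT library, and WT library 2 came close to the mutant range. The means were 0.347 ± 0.0896 and 2.28 ± 1.32 CPM (SD, n = 4). For *Dio3* the log2 fold change was -2.70 (SE 0.59, unadjusted p = 0.00163, adjusted p = 0.127, edgeR), a 6.52-fold lower level that missed the adjusted threshold. Because no values overlapped, a two-sided exact permutation test on log2 CPM could only give p = 0.0286, the smallest value that 4 against 4 libraries allow. It therefore adds nothing to the separation, a state found in 6.04% of all tested genes. The squamous epithelium markers separated the genotypes as completely, with 10 of 10 higher in every Thra1PV/+ library than in any WT library, and other lists moved with genotype too. The mean log2 CPM of 8 leukocyte markers was 4.06 to 4.93 in Thra1PV/+ and 1.97 to 3.83 in WT libraries, with a positive log2 fold change for 8 of 8 and an unadjusted p-value under 0.05 for 4. All 10 smooth muscle markers were lower at that p-value, with a median log2 fold change of -3.96, and their mean log2 CPM was 1.59 to 4.38 in Thra1PV/+ and 4.32 to 9.07 in WT libraries. The part of these cell types in the *Dio3* values was not tested.

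The call of *Dio3* depended on the method and on 1 library. It was made by DESeq2 (log2 fold change -2.69, adjusted p = 4.36e-04), and by edgeR without WT library 2 (-3.01, adjusted p = 0.0345), where 0.0702% of genes were called as lower. In the other 7 edgeR fits that left out 1 library, it was not made, and without WT library 1 the log2 fold change was -2.69 (adjusted p = 0.210). *Dio3os*, a noncoding gene that starts 895 bases from *Dio3* on the other strand, had 1.03 to 3.10 CPM in Thra1PV/+ and 0.722 to 13.4 CPM in WT libraries, a log2 difference of -1.25 (SE 0.76, adjusted p = 0.657, edgeR).

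*Dio2* (chromosome 12, 90724552 to 90738438, minus strand), which makes T3 from T4 inside the cell, was by TPM the most abundant of the 9 genes, with 459, 103, 158 and 182 CPM in Thra1PV/+ libraries 1 to 4 and 191, 362, 200 and 233 CPM in WT libraries 1 to 4. Mutant library 1 was the highest of all, and the other 3 mutant libraries were below every WT library. Its log2 fold change was -0.13 (SE 0.45, adjusted p = 0.960, edgeR). Without mutant library 1 it was -0.69 (adjusted p = 0.412, edgeR), and without WT library 2 it was 0.14 (adjusted p = 0.984, edgeR). Its size and sign thus depended on single libraries. *Dio2* exceeded *Dio3* by 106 to 690 times in Thra1PV/+ and by 16.5 to 249 times in WT libraries in TPM, and these ranges overlapped through WT library 2.

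*Dio1*, the deiodinase of liver and kidney that acts on either ring, was looked up among the other genes of the pathway. It had 3.93, 1.81, 0.879 and 4.15 CPM in Thra1PV/+ libraries 1 to 4 and 5.50, 6.95, 14.9 and 6.03 CPM in WT libraries 1 to 4, with no overlap. Of all tested genes 2.49% were without overlap in this direction. The log2 fold change of *Dio1* was -1.63 (SE 0.56, adjusted p = 0.373, edgeR). DESeq2 called *Dio1* (adjusted p = 0.0880), and it called 1.01% of the genes it tested as lower.

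The transporters of the group showed no difference that passed the test. *Slc7a5* (chromosome 8, 121881150 to 121907694, minus strand) encodes LAT1, an exchanger of large neutral amino acids that also moves T3. It had 51.2, 37.7, 37.4 and 33.3 CPM in Thra1PV/+ libraries 1 to 4 and 55.8, 39.9, 17.2 and 43.7 CPM in WT libraries 1 to 4, with all mutant values inside the WT range. The means differed by 0.03 on the log2 scale (SE 0.33, adjusted p = 0.988, edgeR), or by 0.29 without WT library 1 (adjusted p = 0.920).

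*Slc7a8* (chromosome 14, 54722209 to 54781946, minus strand), which encodes the related LAT2, had 75.6, 16.5, 33.3 and 33.7 CPM in Thra1PV/+ libraries 1 to 4 and 76.2, 78.4, 24.7 and 33.0 CPM in WT libraries 1 to 4. It split the libraries into 3 high and 5 low ones within both genotypes. Between genotypes the log2 fold change came to -0.42 (SE 0.53, adjusted p = 0.859, edgeR), or to -0.15 without WT library 1 (adjusted p = 0.993).

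*Slc16a10* (chromosome 10, 40033532 to 40142258, minus strand), the aromatic amino acid and iodothyronine transporter MCT10, had 16.3, 7.83, 11.2 and 22.4 CPM in Thra1PV/+ libraries 1 to 4 and 22.8, 13.7, 4.32 and 15.5 CPM in WT libraries 1 to 4. The WT values spanned the mutant values, and the log2 fold change was 0.03 (SE 0.50, adjusted p = 0.990, edgeR), or 0.41 without WT library 1 (adjusted p = 0.941).

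*Crym* (chromosome 7, 120186380 to 120202111, minus strand), which holds T3 in the cytosol, was at or under the floor of 3 counts in 5 of 8 libraries. It had 2, 0, 11 and 3 counts in Thra1PV/+ libraries 1 to 4 and 13, 4, 2 and 2 counts in WT libraries 1 to 4. The highest values came 1 from each genotype, and no fold change is given.

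*Hr* (chromosome 14, 70552212 to 70573548, plus strand), a corepressor that binds the receptors, had 14.3, 19.1, 17.8 and 11.6 CPM in Thra1PV/+ libraries 1 to 4 and 15.5, 10.4, 8.22 and 4.94 CPM in WT libraries 1 to 4. Only WT library 1 reached into the mutant range. For *Hr* the log2 fold change was 0.69 (SE 0.35, adjusted p = 0.582, edgeR), and without WT library 1 it was 1.05 (adjusted p = 0.297). Mutant libraries 2 and 3, the highest on *Hr*, were also the highest on the squamous epithelium list, with a mean log2 CPM of 7.82 and 7.70 against 6.76 and 7.09 in the other mutant libraries, while WT library 1 had the lowest squamous value (-1.70) and the highest *Hr* of the WT libraries. The part of squamous epithelium in the *Hr* values was not tested.

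**Figure D3:**
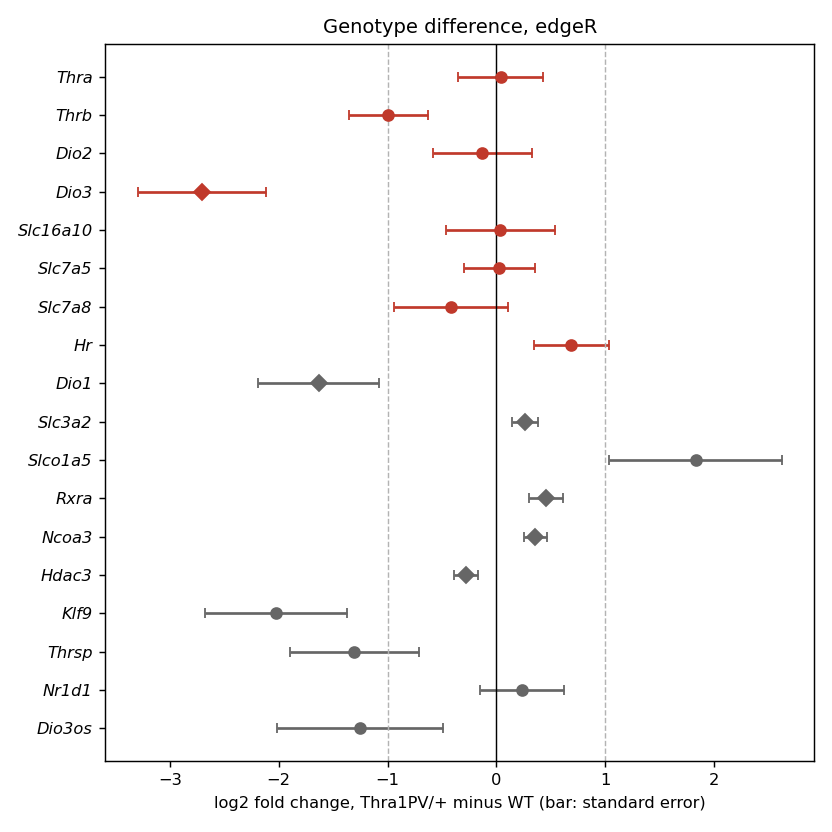
Log2 fold change of Thra1PV/+ over WT with its standard error, from edgeR, for the 8 tested genes (red) and for 10 other genes of the pathway or its surroundings (grey). Diamonds mark genes whose genotypes do not overlap, dashed lines mark a fold change of 2, and among the genes drawn *Dio3* has the largest difference, at -2.70.

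Some genes shared their highest or lowest libraries with the stroma markers. The 3 libraries with the highest mean level of the stroma markers (8.61 in WT 2, 8.38 in WT 1 and 8.10 in Thra1PV/+ 1, in mean log2 CPM) were also the 3 highest for *Thra* and for *Slc7a8*. Thra1PV/+ library 2, the lowest on stroma markers at 4.74, was the lowest of the 8 for *Thra*, *Thrb*, *Dio2* and *Slc7a8*. *Dio3* did not follow the stroma order, since WT library 2 was the highest on stroma markers and had the lowest *Dio3* of the WT libraries. WT 1, Thra1PV/+ 1 and WT 2 were also the 3 highest on 7 endothelium markers, at 5.30, 5.10 and 5.08 in mean log2 CPM. They were the lowest on the 9 tested simple epithelium markers, at 6.93, 6.80 and 7.15. Which of these cell types the gene levels follow was not tested.

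A fit with the mean level of the stroma markers as a covariate, chosen after the data were seen, gave other sizes. It called 1 of the 8 genes, *Dio3* (log2 fold change -3.03, SE 0.58, adjusted p = 0.0595, edgeR), where 0.671% of all genes were called as lower. In this fit *Thra* differed by 0.62 on the log2 scale (SE 0.16, adjusted p = 0.124), and *Thrb* had -0.54 (SE 0.26, adjusted p = 0.373). *Slc7a8* changed sign, to 0.38 (SE 0.14, adjusted p = 0.236). The stroma level was 4.74 to 6.13 in 3 of 4 mutant libraries, and WT libraries ranged from 6.01 to 8.61, so stroma content and genotype cannot be fully told apart.

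**Figure D4:**
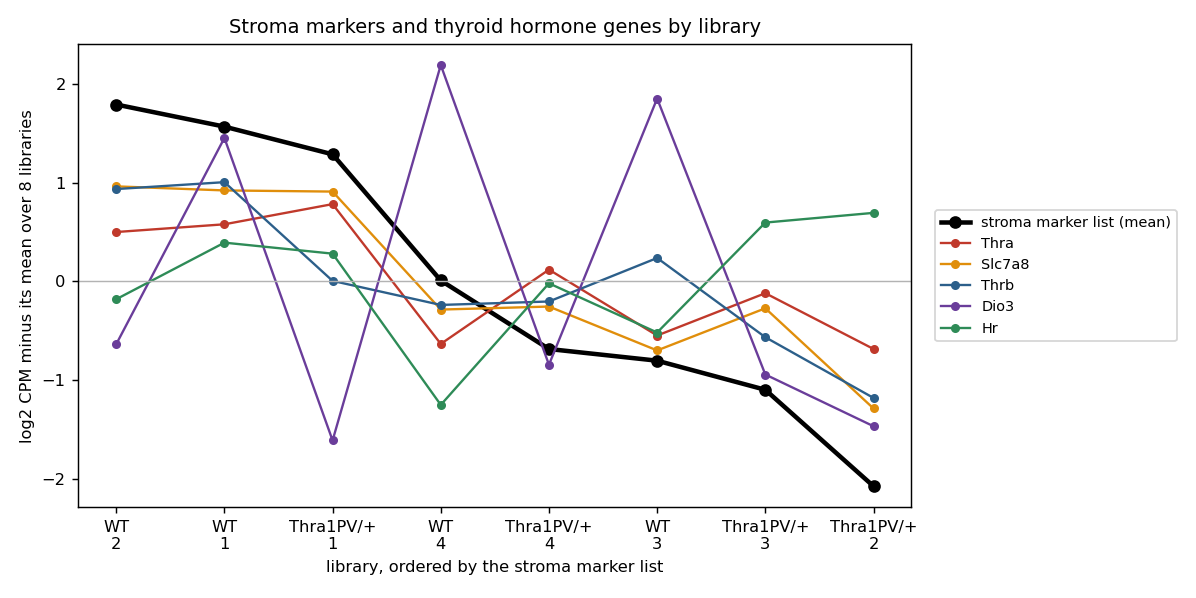
Log2 CPM minus its mean over the 8 libraries (vertical) for the stroma marker list and 5 genes, with the libraries ordered from the highest to the lowest stroma level (horizontal). *Thra* and *Slc7a8* are high in the 3 libraries at the left and low in Thra1PV/+ library 2 at the right, and *Dio3* is low in all 4 Thra1PV/+ libraries wherever they fall in this order.

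The genes whose library pattern was most like that of the receptors were sought among 12120 genes with a mean log2 CPM of 2 or more, by the root mean square difference of centred log2 CPM over the 8 libraries. For *Thra* these were *Hyls1* (0.12), *Gm3055* (0.15) and *Gimap8* (0.15), where *Thra* itself varied by 0.55 about its mean. For *Thrb* they were *Cyp2d22* (0.22), *Smim1* (0.22) and *Adamts6* (0.22), against 0.68 for *Thrb*. *Cyp2d22*, for example, had 4.95 to 13.2 CPM in Thra1PV/+ and 7.62 to 30.9 CPM in WT libraries. These values describe likeness over libraries that share their genotype and cell mix.

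Of 49 further genes of thyroid hormone transport, metabolism, receptor partnership and response, 39 were tested and 0 were called by edgeR, while 3 higher and 3 lower genes reached an unadjusted p-value under 0.05. Of all tested genes 0.99% were called, and 9.77% reached that p-value, 4.72% as lower. For the pathway genes the median log2 fold change was -0.03, and that of all tested genes was -0.05. DESeq2 called 3 of the 49, all lower, namely *Dio1*, *Klf9* and *Sult1b1*, a sulfotransferase with too few counts for the edgeR fit. DESeq2 called 1.01% of all the genes it tested as lower.

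Among 10 other transporters, 6 were tested. *Slc3a2*, the heavy chain that LAT1 and LAT2 need at the membrane, had 129 to 151 CPM in Thra1PV/+ and 105 to 126 CPM in WT libraries, with no overlap and a log2 fold change of 0.26 (SE 0.12, adjusted p = 0.527, edgeR). Of all tested genes 6.04% were without overlap. *Slco1a5*, an organic anion transporter of the OATP family, had 10.2 to 20.7 CPM against 0.722 to 10.2 CPM (log2 fold change 1.83, SE 0.79, adjusted p = 0.508), and the genotypes overlapped through WT library 3. *Slco3a1*, of the same family, had a log2 fold change of -0.73 (SE 0.35, adjusted p = 0.564). *Slco4a1*, also of this family, had -0.64 (SE 0.95, adjusted p = 0.885), with 1.16 to 75.5 CPM among WT libraries, and its sign turned without WT library 3 (0.055).

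Of 8 other genes of deiodination, among them *Dio1*, the machinery that puts selenocysteine into the enzymes and the factors that add or remove ubiquitin on DIO2, 7 were tested. *Sephs2*, *Eefsec* and *Usp20* had log2 fold changes of -0.23, -0.11 and -0.22, each with an adjusted p-value of 0.680 or more in edgeR's test. Of the conjugation enzymes and plasma carriers, 2 of 6 were tested. *Sult1a1*, a sulfotransferase, differed by -1.72 on the log2 scale (SE 0.83, adjusted p = 0.565, edgeR), and *Ugt1a1*, a glucuronosyltransferase whose last exons are shared with the other *Ugt1a* genes so that its reads cannot be assigned with certainty, had 1.20 (SE 0.73, adjusted p = 0.657). WT library 3 carried 65.1 CPM of *Ugt1a1* where the other WT libraries had 6.46 to 12.0 CPM, and without it the gene was called (log2 fold change 2.54, SE 0.38, adjusted p = 0.0478, edgeR). The fit without WT library 3 called 162 of 18659 tested genes.

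Of 15 receptor partners 14 were tested. *Rxra*, the partner with which the receptors form heterodimers on DNA, had 113 to 146 CPM in Thra1PV/+ and 77.7 to 112 CPM in WT libraries, a log2 fold change of 0.45 (SE 0.15, adjusted p = 0.373, edgeR). The coactivator *Ncoa3* had 58.7 to 64.1 CPM against 43.5 to 53.7 CPM (log2 fold change 0.36, SE 0.11, adjusted p = 0.319). *Hdac3*, the deacetylase of the corepressor complex, had 80.8 to 92.7 CPM against 96.8 to 114 CPM (log2 fold change -0.28, SE 0.11, adjusted p = 0.458). None of these 3 genes overlapped between genotypes, where 6.04% of all tested genes were without overlap, and each differed by less than 1.5-fold.

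Of 10 genes that respond to thyroid hormone in other tissues, all 10 were tested, and 7 had a negative log2 fold change, 1 of them (*Klf9*) at an unadjusted p-value under 0.05. Of all 18174 tested genes 10331 were negative, and 4.72% were lower at that p-value. *Klf9*, a direct target of the receptors, had 16.1, 3.59, 5.62 and 4.22 CPM in Thra1PV/+ libraries 1 to 4 and 54.1, 38.5, 10.7 and 17.1 CPM in WT libraries 1 to 4. Only mutant library 1 lay inside the WT range. That library was high on stroma and endothelium markers and low on simple epithelium markers. The part of each cell type in the *Klf9* values was not tested. *Klf9* had a fitted log2 fold change of -2.02 (SE 0.65, unadjusted p = 0.0140, adjusted p = 0.351, edgeR), DESeq2 called it (adjusted p = 0.0524), and with the stroma covariate the log2 fold change was -1.09 (adjusted p = 0.118). *Thrsp*, a lipogenic gene induced by T3 in liver, differed by -1.31 on the log2 scale (SE 0.59, adjusted p = 0.532), with 136 CPM in WT library 2 and 14.6 to 42.6 CPM in the other 7. *Pck1* and *Mbp* had log2 fold changes of -0.78 and 0.51, neither past the threshold.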

How the data were processed

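RNA-seq of endometrium cut out by laser was compared between 4 WT and 4 Thra1PV/+ mice. The authors made stranded mRNA libraries, trimmed reads with Trimmomatic, ran salmon for mouse genome mm10 and deposited estimated counts per gene, without normalization. Tool versions and the annotation release are not given in the sources used here. The authors also deposited TPM values, whose sorted values differ by at most 0.291 TPM between libraries, the form quantile normalization gives. A further column of that table (1), which matches no sample and holds negative values, was not used.

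Counts were rounded and tested with edgeR 4.0.16 in R 4.3.3 (filterByExpr with minimum count 10 and total 15, TMM, quasi-likelihood, genotype as the only term, Benjamini-Hochberg over all tested genes). The standard error is the absolute log2 fold change divided by the square root of F. Log2 CPM used a prior count of 2. DESeq2 1.42.0 and limma 3.58.1 were alternatives, and an adjusted p-value DESeq2 did not give was left missing. Positions and sequences are from GENCODE M21 (GRCm38), and symbols matched 52220 of 52325 identifiers. Genes without a symbol held at most 0.00897% of the counts. The edgeR test was first run on simulated counts with known changes.

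Named were the 9 genes, 2 neighbours on the other strand, called pathway genes and up to 4 further ones per list by lowest p-value, and the 3 genes most like each receptor. Some genes that this rule covers are not reported here. The genes and lists were chosen with earlier results of these data known. With 4 libraries a group, an exact permutation test over 70 arrangements cannot go below 0.0286. Depth covers counting error only, and 3 counts were taken as the floor.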

Additional observations from a re-analysis of the deposited data

Results flagged for a closer look

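Of 58 groups of 4 libraries examined for a library far from the rest, over the tested genes that are named and both genotypes, 1 exceeded Dixon's 95% critical value, where chance alone gives about 2.9. It was *Hdac3* in Thra1PV/+ library 1, at 6.34 in log2 CPM, while the other mutant libraries lay between 6.51 and 6.53 (gap over range 0.862). None of the 8 tested thyroid hormone genes of the group was flagged in this way, including *Dio2*, for which the same library was the highest.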

How the results depend on the processing

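Over 19 alternative fits, *Dio3*, *Thrb* and *Hr* kept the direction of their log2 fold change, which ranged from -3.03 to -1.06 for *Dio3*, from -1.19 to -0.54 for *Thrb* and from 0.32 to 1.05 for *Hr*. The number of the 9 genes called was 0, and it became 1 with DESeq2 and with the stroma covariate, and 2 at an unadjusted p-value under 0.05. The gene was *Dio3* in each case of 1 call (log2 fold change -2.69 with DESeq2 and -3.03 with the covariate). Of the other pathway genes 0 were called, and 3 with DESeq2. Leaving out 1 library gave 0 or 1 call in either set, *Dio3* without WT library 2 and *Ugt1a1* without WT library 3. In those fits the log2 fold changes ranged from -3.01 to -2.40 for *Dio3*, from -0.23 to 0.29 for *Thra*, from -0.69 to 0.14 for *Dio2*, from -0.26 to 0.41 for *Slc16a10*, from -0.20 to 0.29 for *Slc7a5* and from -0.89 to -0.15 for *Slc7a8*. Elsewhere the sign of 3 values turned. With the covariate it turned from -0.13 to 0.23 for *Dio2* and from -0.42 to 0.38 for *Slc7a8*. With limma voom and sample quality weights it turned from 0.03 to -0.043 for *Slc7a5*. The cause was not tested. The labels give same-numbered libraries of the genotypes a shared number and nothing more. Of 4 such pairs 2 deviated together (correlations from -0.44 to 0.34), and 1 of 4 mutant libraries matched its own number best. These values cannot decide whether same-numbered libraries were handled together. Over all genes, the number called was 180, and it was 791 with DESeq2, 449 with the covariate, 311 with limma voom, 81 among genes with 10 counts in every library and 81 to 167 when 1 library was left out, lowest without Thra1PV/+ library 3, 114 without WT library 4 and 116 without Thra1PV/+ library 2. With the replicate block, 82 genes were called, 0 of the 9 genes among them, and *Dio3* had a log2 fold change of -2.47 (adjusted p = 0.276, edgeR). At 14 to 25 counts in the mutant libraries, *Dio3* is measured at low depth, and *Crym* is below what these libraries can compare.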
